A study of Homo sapiens with 16 samples.

Results

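Small nucleolar RNA host genes are long noncoding RNA genes whose introns carry small nucleolar RNAs (snoRNAs), the short guides that direct 2′-O-methylation (box C/D type) or pseudouridylation (box H/ACA type) of ribosomal and other RNAs. The intron is processed to the mature snoRNA, while the spliced and polyadenylated host RNA often begins with a pyrimidine tract and is in several cases degraded by nonsense-mediated decay during translation. Several of these host RNAs, among them SNHG12, have been studied in glioma and its drug resistance. The genes described here were SNHG1, SNHG5, SNHG8, SNHG12, SNHG15, SNHG16 and GAS5. They were taken by name, and their data were the called bases of 8 libraries that lay inside each gene's RefSeq span on hg38 and on the strand the gene is read from. The 7 genes held 69 of the 452349 bases called in any library. SNHG5 and SNHG16 held 19 each, SNHG8 held 17, SNHG1 held 9, SNHG12 held 5, and GAS5 and SNHG15 held 0.

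The libraries were m6A-eCLIP, in which polyA RNA is fragmented, bound by an antibody to N6-methyladenosine (m6A) and crosslinked to it, so that the bound base can be read from the sequencing. Such antibodies also bind m6Am, a related mark at the start of many RNAs. Of 3 groups, the first was U87-R given 50 µM STM2457 for 96 hours (2 libraries, called treated U87-R here). STM2457 inhibits METTL3, the enzyme that writes most m6A in messenger RNA. The second was U87-R labelled as a DMSO control (3 libraries), and the third was U87, also labelled as a DMSO control (3 libraries). U87 is short for U87 MG, a widely used human glioma cell line. Its derivative U87-R resists temozolomide (TMZ), a drug that alkylates DNA. U87-R was kept in medium with 50 µM TMZ and U87 was not, so resistance and the drug in the medium cannot be told apart. The labels do not say whether replicates came from separate cultures, so each p-value measures the spread between these libraries.

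The number of called bases was 105900 and 110875 in treated U87-R, 149477 to 192697 in U87-R and 150135 to 182556 in U87. The lists give each called base a score and no read count, so depth is unknown. The score has no stated formula. The matching input libraries were not analysed here, so a score joins how much of an RNA is methylated with how much of that RNA there is, and less RNA cannot be told apart from less methylation. A base without a call has no score, and it entered sums and tests as 0. Of 6 genes expected in this line, 4 had a strand in the gene table (VIM, CD44, FN1 and TNC), and 3 of them had calls in all 8 libraries. Their summed score was 2972 to 3001 in treated U87-R, 7035 to 8040 in U87-R and 6428 to 7079 in U87. Of 4 markers of other cell types with a strand, 2 had no call in any library. The summed score of SYT1 and MBP was 34.1 to 34.8 in treated U87-R, 0 to 9.23 in U87-R and 0.427 to 6.87 in U87, and its part in the results below was not tested.

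The 5′ ends of these genes are shown because m6A calls near the start of an RNA were counted apart from the rest, and because only SNHG1 had any there. The first 50 bases follow for the 6 genes with an entry in the RefSeq promoter table (GRCh38.p14), 5′ to 3′, with bases called in any library in capitals.
SNHG1, chr11:62855836-62855885, minus strand: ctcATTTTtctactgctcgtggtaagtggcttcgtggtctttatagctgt
SNHG5, chr6:85678684-85678733, minus strand: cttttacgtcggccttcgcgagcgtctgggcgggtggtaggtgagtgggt
SNHG8, chr4:118278762-118278811, plus strand: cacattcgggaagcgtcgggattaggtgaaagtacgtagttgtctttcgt
SNHG12, chr1:28581824-28581873, minus strand: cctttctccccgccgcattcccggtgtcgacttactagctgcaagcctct
SNHG16, chr17:76557764-76557813, plus strand: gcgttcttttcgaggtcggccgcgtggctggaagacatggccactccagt
GAS5, chr1:173868996-173869045, minus strand: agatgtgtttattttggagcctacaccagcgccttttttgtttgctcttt

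The SNHG12 window starts 1110 nt inside the gene's span, which reaches farther 5′ through other transcripts. SNHG15 had no entry. The letters CTTT, chosen after the sequences were seen, stood on the sense strand in all 6 windows and in 17.5% of the 35116 windows of the whole table. Such a match describes the letters only.

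Called bases lay in a few narrow places of each gene, and the place differed from gene to gene. SNHG8 (chr4:118278762-118279823, plus strand, 1062 nt) had all 17 of its bases near its 3′ end, 50 to 202 nt from it. SNHG5 (chr6:85677007-85678733, minus strand, 1727 nt) had its 19 bases 166 to 460 nt from the 5′ end. SNHG16 (chr17:76557764-76565348, plus strand, 7585 nt) had its 19 bases 524 to 1941 nt from the 3′ end. All 5 bases of SNHG12 (chr1:28578538-28582983, minus strand, 4446 nt) fell inside 1 of its snoRNAs, SNORD99. SNHG1 (chr11:62851978-62855885, minus strand, 3908 nt) was the only one of the 7 with calls in the first 50 nt, at 5 adjacent bases. SNHG15 (chr7:44983023-44986696, minus strand, 3674 nt) and GAS5 (chr1:173863901-173869045, minus strand, 5145 nt) had none anywhere.

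**Figure D1:**
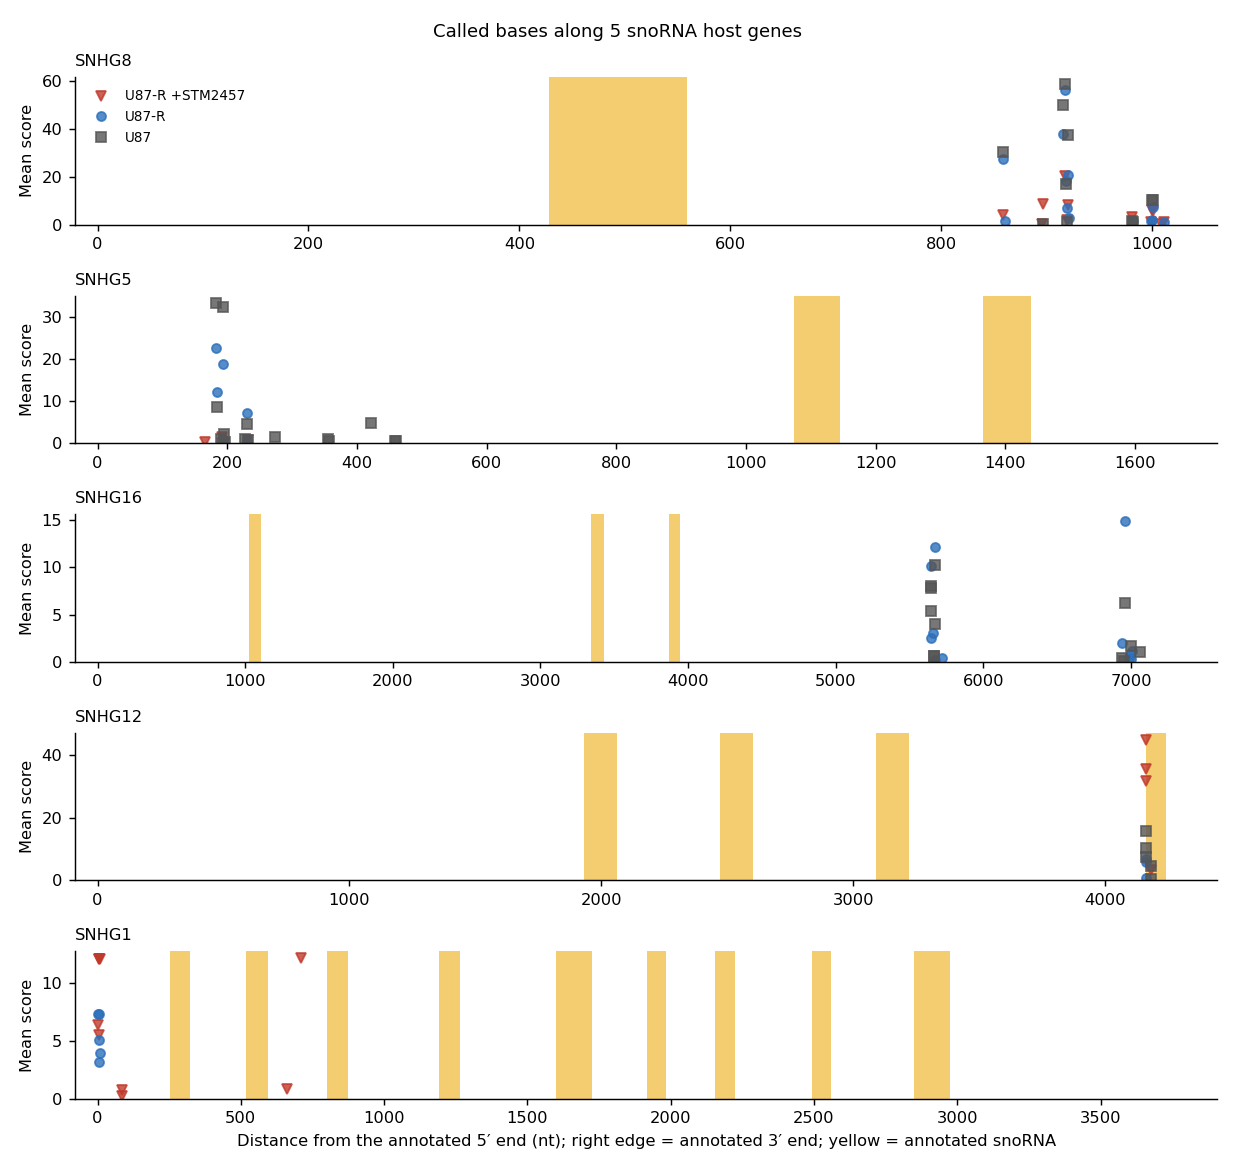
Mean score of every called base in each group (uncalled libraries as 0; no mark where the mean is 0) against its distance from the annotated 5′ end in nt, 1 panel for each of the 5 host genes with called bases, with annotated snoRNAs in yellow. The SNHG8 bases lie 859 to 1011 nt from its 5′ end, the SNHG12 bases lie in its most 3′ snoRNA, and SNHG16 has no mark for treated U87-R.

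Calls were unevenly shared between libraries, for most counts at about the share seen over all called bases of the series. Only 4 of the 69 bases were called in all 8 libraries (6.82% of all called bases of the series were), and all 4 belonged to SNHG8. A further 32 were called in a single library (48.2% of all called bases). A score of 10 in some library was reached by 28, and the share over all called bases was not computed. Of the 69 bases, 8 were called in treated U87-R alone (11.0% of all called bases) and 40 were called in no treated library (66.2% of all called bases). All 19 SNHG16 bases were among these 40. Of the 10 bases called in all 3 U87-R libraries, 5 were missing from both treated libraries, against 37.6% of the 81500 such bases of the whole series. All 10 lay 50 nt or more from the 5′ end of their gene, and of the 56960 such bases placed like them 41.9% were missing. Per library, the 7 genes together held 14 and 24 called bases in treated U87-R, 23, 15 and 27 in U87-R, and 20, 32 and 26 in U87.

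Summed over its bases, the score of a host gene was compared between groups by a limma fit over 8885 genes with Benjamini-Hochberg adjustment. The filter on low sums kept 5 of the 7 genes, since GAS5 and SNHG15 had nothing to sum. Between treated U87-R and U87-R, SNHG5, SNHG8 and SNHG16 fell and SNHG12 rose, while SNHG1 did not pass. Thus 3 of 5 were lower, against 37.9% of all genes tested, and 1 of 5 was higher, against 6.6%. Among the 538 long noncoding RNA genes tested, 29.0% were lower and 4.65% were higher. The median log2 change was -1.56 for the 5 host genes, -1.10 for the long noncoding RNA genes and -0.67 for all genes. Each change is a difference of log2(sum + 1), which makes the change of a low sum look smaller.

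**Figure D2:**
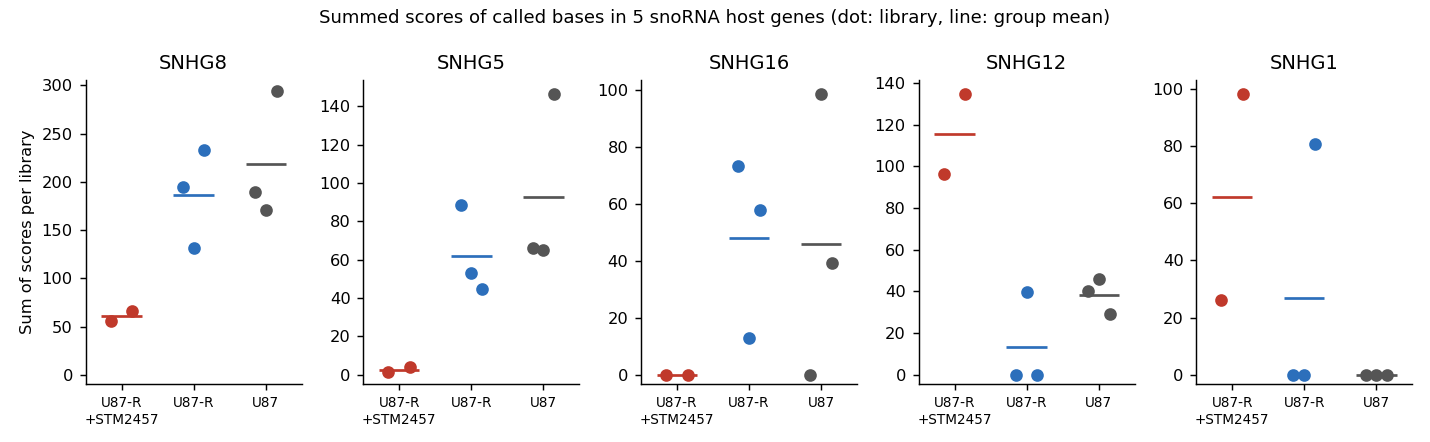
Sum of scores per library for the 5 host genes with called bases, with 1 point per library, the group mean as a line, and treated U87-R left of U87-R and U87. SNHG5, SNHG8 and SNHG16 lie lower in both treated libraries than in every U87-R library, and SNHG12 lies higher.

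SNHG8 hosts SNORA24, an H/ACA snoRNA that guides pseudouridylation of 18S ribosomal RNA, and it had the highest summed score of the 7 genes in U87-R and in U87. Its score was 56.2 and 65.9 in treated U87-R, 195, 131 and 233 in U87-R, and 190, 171 and 294 in U87. Both treated libraries lay below all 6 others, and the U87-R and U87 libraries overlapped. The means were 61.0 ± 6.81 in treated U87-R (SD, n = 2) and 186 ± 51.4 in U87-R (SD, n = 3), a log2 change of -1.56 ± 0.34 (SE, limma adjusted p = 0.00569). The number of called bases did not follow the score. It was 8 and 10 in treated U87-R and 9, 7 and 10 in U87-R, and with bases counted in place of scores the log2 change was 0.05 (limma adjusted p = 0.88). Of all genes tested, 24.1% had a lower change than SNHG8.

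The loss of score in SNHG8 was not spread evenly along its 3′ stretch. The bases 896 to 921 nt from the 5′ end summed to 41.0 and 37.3 in treated U87-R and to 145.5, 106 and 179 in U87-R. The bases 859 and 861 nt from the 5′ end together had 8.16 and 0.301 in treated U87-R and 26.1, 24.9 and 36.5 in U87-R. In both places the treated libraries lay below every U87-R library. The bases farther 3′, at 981 to 1011 nt, summed to 7.08 and 28.3 in treated U87-R and to 23.5, 0.674 and 17.7 in U87-R. There the groups overlapped. The ratio of the treated U87-R mean to the U87-R mean was 0.273 for the first of these stretches, 0.145 for the second and 1.27 for the third, and the difference between these stretches was not tested.

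Within the middle stretch, adjacent bases went to different levels. The base with the highest mean score of all SNHG8 bases, chr4:118279679, was called in every library, with 22.5 and 18.3 in treated U87-R, 60.4, 51.4 and 57.1 in U87-R, and 50.9, 44.9 and 80.4 in U87. The base just 5′ of it, chr4:118279678, had no call in treated U87-R, against 39.7, 19.8 and 54.1 in U87-R and 26.6, 44.9 and 78.2 in U87. The base just 3′ of it, chr4:118279680, had none in treated U87-R either, against 11.5, 14.1 and 29.1 in U87-R and 9.23, 11.0 and 30.6 in U87. So the middle base of the 3 kept a reduced score in both treated libraries and its neighbours were not called there. The letters of these bases were not read, so adjacent bases need not be separate m6A sites. The log2 changes were -1.43 ± 0.27 for 118279679 (limma adjusted p = 0.00729), -5.17 ± 0.60 for 118279678 (adjusted p = 0.000799) and -4.16 ± 0.72 for 118279680 (adjusted p = 0.00477). Centring on the median base of a library put the median change of all bases at 1.62, against -0.998 without it, and the change of 118279679 at 1.19 (limma adjusted p = 0.0398). The same shift applied to every base. It put at 2.62 the SNHG16 base chr17:76563409, which had no call in treated U87-R or U87-R. Such centring therefore cannot decide the direction at 118279679, and single bases were not scaled to library totals. Under the same centring 118279678 was lower at -2.55 (limma adjusted p = 0.00585) and 118279680, at -1.54, did not pass (adjusted p = 0.181). The base at chr4:118279621 had 8.16 and 0.301 in treated U87-R, against 26.1, 24.9 and 31.7 in U87-R. Its log2 change of -3.04 ± 0.75 (limma adjusted p = 0.0237) did not pass without treated replicate 2 (adjusted p = 0.0525), U87-R replicate 1 (0.0557) or U87-R replicate 3 (0.062). Centring put it at -0.43 (limma adjusted p = 0.701).

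**Figure D3:**
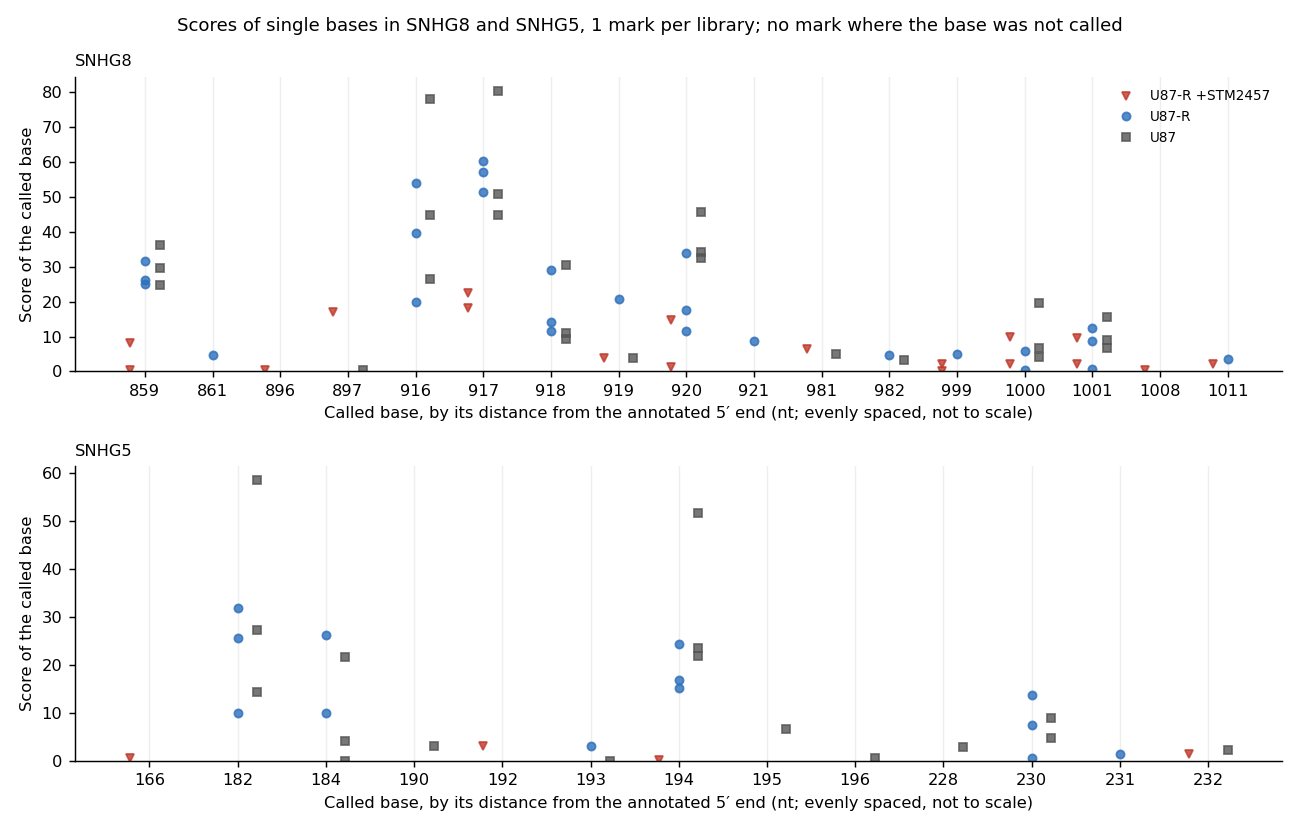
Score of each called base of SNHG8 (all 17) and of the SNHG5 bases up to 232 nt from the 5′ end, 1 mark per library, no mark where the base was not called, with treated U87-R drawn left of U87-R and U87. Bases are evenly spaced by order, and at 916 and 918 nt of SNHG8 and at 182 nt of SNHG5 no mark of treated U87-R appears.

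SNHG5 hosts SNORD50A and SNORD50B, C/D snoRNAs. Its summed score was 1.51 and 4.02 in treated U87-R, 88.3, 53.1 and 44.9 in U87-R, and 66.3, 65.0 and 147 in U87. Nearly all score was missing from both treated libraries, though a deposited peak of treated U87-R remained in the gene, as given below. U87-R and U87 overlapped. The means were 2.77 ± 1.78 in treated U87-R (SD, n = 2) and 62.1 ± 23.1 in U87-R (SD, n = 3), with a log2 change of -4.09 ± 0.64 (limma adjusted p = 0.0012). Without any 1 library the change stayed between -4.59 and -3.59, with adjusted p from 0.00129 to 0.0056. With bases counted in place of scores the change was -0.91 (limma adjusted p = 0.0921).

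Most of the SNHG5 score in U87-R and U87 lay in 1 narrow place. The bases 166 to 196 nt from the 5′ end gave means of 2.01 in treated U87-R, 54.4 in U87-R and 77.7 in U87. The base chr6:85678551 had no call in treated U87-R, against 31.9, 25.7 and 9.96 in U87-R and 27.3, 14.3 and 58.3 in U87. The base chr6:85678539 was not called in treated replicate 1 and had 0.227 in treated replicate 2, against 15.2, 16.8 and 24.3 in U87-R and 21.8, 23.5 and 51.5 in U87. At both bases every untreated library lay above both treated ones. The log2 changes were -4.41 ± 0.74 (limma adjusted p = 0.00413) and -4.13 ± 0.55 (adjusted p = 0.0014), and centring on the median base reduced them to -1.79 (adjusted p = 0.0995) and -1.51 (adjusted p = 0.119). Between these bases, chr6:85678549 had no call in treated U87-R or U87-R replicate 2. It had 26.2 and 9.96 in U87-R replicates 1 and 3, and 4.08, 0.0411 and 21.7 in U87. Its change of -2.74 ± 1.70 did not pass (limma adjusted p = 0.2885).

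SNHG16 hosts SNORD1A, SNORD1B and SNORD1C, C/D snoRNAs. No base of it was called in treated U87-R. Its summed score was 73.5, 13.1 and 57.9 in U87-R, while in U87 it was 98.8 in replicate 2, 39.3 in replicate 3 and 0 in replicate 1, which had no call. The treated libraries thus lay below all U87-R libraries but level with U87 replicate 1. The log2 change between treated U87-R and U87-R was -5.30 ± 1.76 (limma adjusted p = 0.037), and its size depends on the 1 added to each sum. It did not pass without treated replicate 1 (adjusted p = 0.0942), treated replicate 2 (0.089), U87-R replicate 1 (0.0963) or U87-R replicate 3 (0.0892). It also did not pass with 10 added in place of 1 (adjusted p = 0.0564), without the filter on low sums (0.0566), or with bases counted (0.104).

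Of the 19 SNHG16 bases, 8 lay at 5643 to 5674 nt and 9 at 6936 to 7003 nt from the 5′ end, with the others at 5717 nt (1.21 in U87-R replicate 1) and 7060 nt (3.12 in U87 replicate 2). The 5′ group summed to 45.6 in U87-R replicate 1 and 38.9 in replicate 3, with no call in replicate 2, and to 70.5 in U87 replicate 2 and 39.3 in replicate 3. The 3′ group summed to 26.7, 13.1 and 19.0 in U87-R and to 25.2 in U87 replicate 2 alone. The base chr17:76563438 of the 5′ group had the highest mean score, with 18.3 and 18.2 in U87-R replicates 1 and 3 and 25.4 and 5.33 in U87 replicates 2 and 3. The 1 SNHG16 base called in all 3 U87-R libraries was chr17:76564723 of the 3′ group, at 17.5, 13.1 and 14.1 in U87-R and 18.7 in U87 replicate 2. Its log2 change with STM2457 of -3.98 ± 1.35 did not pass (limma adjusted p = 0.0742), nor did that of any other SNHG16 base.

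SNHG12 was the 1 host gene called higher in treated U87-R, and its bases all lay in SNORD99 (chr1:28578743-28578822), a C/D snoRNA. Its summed score was 96.6 and 135 in treated U87-R, 39.6 in U87-R replicate 2 with no call in U87-R replicates 1 and 3, and 40.1, 45.9 and 29.2 in U87. Both treated libraries lay above all 6 others. The means were 116 ± 27.1 in treated U87-R (SD, n = 2) and 13.2 ± 22.8 in U87-R (SD, n = 3), with a log2 change of 5.07 ± 1.48 (limma adjusted p = 0.0221). The call was lost without treated replicate 1 (adjusted p = 0.0563), treated replicate 2 (0.0757), U87-R replicate 1 (0.063) or U87-R replicate 3 (0.0627), while the change stayed between 4.18 and 6.85. With bases counted it was 1.49 (limma adjusted p = 0.0909).

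The SNHG12 score sat at the 5′ end of the snoRNA. Counted from 1 at the first base of SNORD99, bases 2, 3 and 4 (chr1:28578821, 28578820 and 28578819) were called in the same 6 libraries. Base 3, with the highest mean score, had 37.5 and 52.4 in treated U87-R, 2.01 in U87-R replicate 2, and 18.7, 18.7 and 9.74 in U87. It was the 1 SNHG12 base that passed, with a log2 change of 4.97 ± 0.71 (limma adjusted p = 0.00185), though not without treated replicate 2 (adjusted p = 0.0532). Base 2 had 37.5 and 33.5 in treated U87-R, 17.4 in U87-R replicate 2, and 16.8, 4.32 and 9.74 in U87 (log2 change 3.79 ± 1.32, limma adjusted p = 0.0812). Base 4 had 21.5 and 42.2 in treated U87-R, 20.2 in U87-R replicate 2, and 2.22, 10.0 and 9.74 in U87 (log2 change 3.50 ± 1.42, limma adjusted p = 0.13). In each of these 3 bases both treated libraries lay above every U87-R and U87 library. The 3 are adjacent and share scores, such as 9.74 at all 3 in U87 replicate 3, so they are not separate observations. Without U87-R replicate 2, base 2 (limma adjusted p = 0.00349) and base 4 (adjusted p = 0.0076) passed as well. That library alone had calls in U87-R, so U87-R then held no call at all. With each other U87-R or U87 library left out in turn, neither base passed. The remaining calls were at bases 23 and 24 of SNORD99.

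Calls inside snoRNAs were rare. The 7 genes held 31 annotated snoRNAs, and SNORD99 was the 1 of them with a called base. Over the genome, 682 snoRNAs lay within host genes of a single strand, and 2 had a called base. The other was SNORD41, in TNPO2, with 2.40 in U87-R replicate 2 alone. A base in an annotated snoRNA can come from the mature snoRNA or from a host transcript that spans it, and the lists do not tell these apart.

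SNHG1, first described as the U22 host gene, holds SNORD22 and SNORD25 to SNORD31, C/D snoRNAs. Its summed score was 26.1 and 98.2 in treated U87-R, and 80.5 in U87-R replicate 3, with no call in U87-R replicates 1 and 2 or in any U87 library. The treated and U87-R libraries overlapped, and the log2 change of 3.58 ± 1.77 did not pass (limma adjusted p = 0.132). Without U87-R replicate 3 it was 5.70 (limma adjusted p = 0.00227), but U87-R then held no call at all. With each other U87-R or U87 library left out in turn, SNHG1 did not pass.

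The SNHG1 calls near the start came from treated replicate 2 and U87-R replicate 3. Those are bases 4 to 8 of the sequence above, ATTTT in capitals, of which the first is the only A. Base 4 had a score of 12.8 in treated replicate 2 and 21.9 in U87-R replicate 3. Base 5, a T with the highest mean score of the gene, had 24.2 in treated replicate 2 and 21.9 in U87-R replicate 3. Bases 6 to 8 had 11.0, 24.2 and 24.2 in treated replicate 2, and 15.2, 9.53 and 11.9 in U87-R replicate 3. Treated replicate 1 had instead a base 711 nt from the 5′ end, at 24.4, and another at 660 nt, at 1.78. The 2 treated libraries therefore shared no SNHG1 base.

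As a whole, host gene score near the 5′ end was a matter of SNHG1 alone. Within 50 nt of the 5′ end lay 0% and 31.8% of the 7 genes' summed score in treated U87-R, 0%, 0% and 19.3% in U87-R, and none in U87. For SNHG1 the log2 change of the score in this window was 1.19 ± 2.43 (limma adjusted p = 0.722), where 22.4% of the 3491 genes tested in it were higher, 0.802% were lower and the median change was 1.07. Those higher calls were lost without treated replicate 1 (0 higher, 2 lower) or treated replicate 2 (0 higher, 3 lower), with medians of 0.97 and 0.95, and after centring 319 were higher and 124 lower, with a median of 0.04. Beyond 50 nt, SNHG5, SNHG8 and SNHG16 were lower and SNHG12 was higher, against 50.9% lower and 5.35% higher of 8335 genes, with a median of -1.12. After centring of the sums beyond 50 nt on library medians, SNHG8 had -0.48 (limma adjusted p = 0.197) and SNHG16 had -4.22 (adjusted p = 0.0604), neither of which passed.

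**Figure D4:**
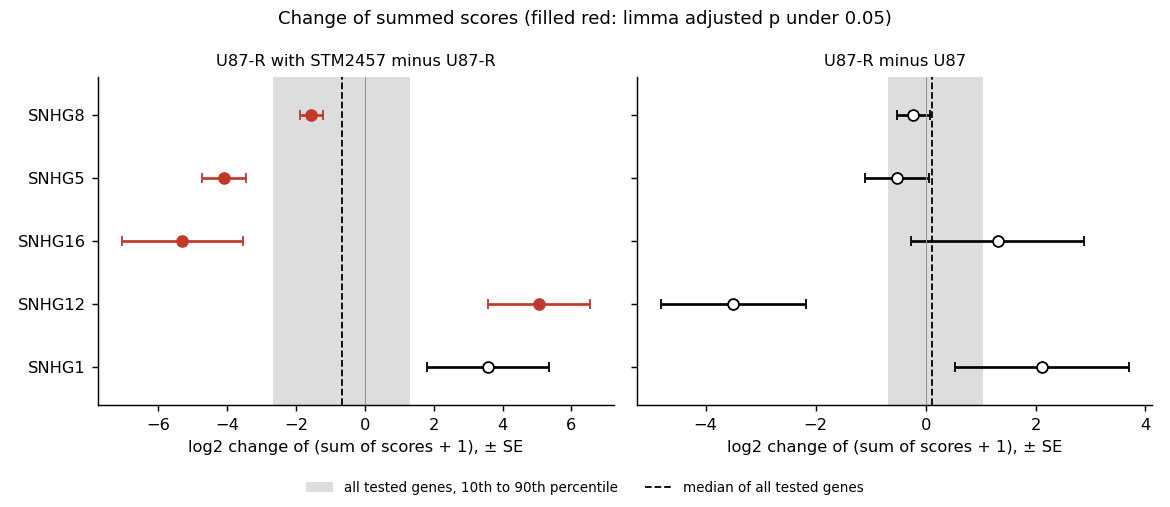
Log2 change of the summed score (± SE, limma) of the 5 host genes, for treated U87-R minus U87-R on the left and for U87-R minus U87 on the right. The grey band spans the 10th to 90th percentile of all tested genes, the dashed line is their median, and filled points have a limma adjusted p under 0.05. With STM2457, SNHG5 (-4.09) and SNHG16 (-5.30) lie below the band and SNHG12 (5.07) and SNHG1 (3.58, not called) above it, while SNHG8 (-1.56) lies inside it.

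For single bases, the same model was fitted to the 188742 bases with calls in 2 or more libraries of the same group, of which 23 belonged to the host genes. With STM2457, 6 of these 23 were lower (16.9% of all bases tested) and 1 was higher (6.65% of all bases tested). The 6 were 4 SNHG8 bases and 2 SNHG5 bases, and the 1 was base 3 of SNORD99. After centring on library medians, 1 of the 23 was lower (118279678) and 10 were higher, as the calls over all bases turned to 68586 higher and 8863 lower. Those counted as higher included the SNHG5 base 85678311 (2.62) and the SNHG16 bases 76563437 (2.40) and 76564767 (1.68). None of these had a call in treated U87-R, so a higher call after centring need not mean a higher score. None of the 9 SNHG1 bases met the requirement for a test.

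GAS5 builds up in cells that stop growing and can bind the glucocorticoid receptor, and the snoRNAs it hosts include SNORD44, SNORD47 and SNORD74 to SNORD81. No base of it was called on its own strand in any library, inside or outside its 11 snoRNAs. On the opposite strand of its span, 4 bases were called that lie in ZBTB37, with a summed score of at most 7.83 in a library. SNHG15, a short-lived RNA that hosts SNORA9, had no called base on either strand. As the input libraries were not analysed here, an absent call does not show whether the RNA was absent or unmethylated.

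Between U87-R and U87, no host gene passed. By limma, 0 of the 5 tested genes were called, against 0.844% of all genes higher and 0.405% lower, and 1 had an unadjusted p under 0.05, against 12.4% of all genes. That gene was SNHG12, with 39.6 in U87-R replicate 2 alone, against 40.1, 45.9 and 29.2 in U87 (log2 change -3.50 ± 1.32, limma adjusted p = 0.326). U87-R replicate 2 lay inside the U87 range and the other U87-R libraries had no call. Without U87-R replicate 2 the change was -5.28 (limma adjusted p = 0.0101). The change was -0.22 ± 0.30 for SNHG8 (limma adjusted p = 0.837), -0.52 ± 0.58 for SNHG5 (0.787), 1.31 ± 1.57 for SNHG16 (0.808) and 2.12 ± 1.59 for SNHG1 (0.658). The median change of all genes was 0.12. This comparison and the one with STM2457 share the U87-R libraries, so a low or high U87-R library moves both.

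At single bases, 0 of the 23 tested host gene bases passed between U87-R and U87, where 1 of all 188742 bases did (0.00053%, higher), and 3 of the 23 had an unadjusted p under 0.05, against 11.0% of all bases. They were base 3 of SNORD99 (-3.48 ± 0.63, limma adjusted p = 0.117), the SNHG5 base chr6:85678311 (-2.48 ± 0.46, adjusted p = 0.117) and the SNHG16 base chr17:76563409 (-2.37 ± 0.99, adjusted p = 0.428), named after their values were seen. Base 3 of SNORD99 passed without U87-R replicate 2 (limma adjusted p = 0.0231), the only U87-R library with a call there. The SNHG5 base passed without U87 replicate 1 (limma adjusted p = 0.0403) or U87 replicate 2 (0.0307), and chr17:76563409 without U87 replicate 1 (0.0349). The SNHG5 base had no call in U87-R or treated U87-R, against 6.00, 2.78 and 5.49 in U87. For SNHG16 as a whole, U87 replicate 1 had no call and U87 replicate 2 had the highest sum of the 8 libraries.

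The authors' deposited tables of reproducible sites and peaks, which join the libraries of a group, held little of these genes. In the authors' deposited table of sites, 2 SNHG5 bases were listed for U87-R and the same 2 for U87, chr6:85678539 and chr6:85678551, and none for treated U87-R. No other host gene had a listed site. In the authors' deposited table of peaks, SNHG5 had 1 peak (50 nt) in treated U87-R, 3 (169 nt) in U87-R and 8 (206 nt) in U87, all around the same bases. The treated U87-R peak (chr6:85678510-85678559) held both listed bases and passed in all treated libraries. Of the U87-R peaks 0 passed in all libraries of the group, and of the U87 peaks 2 did. So a peak remained in treated U87-R where the called bases had lost nearly all score. SNHG12 had 3 peaks over SNORD99 (68 nt) in treated U87-R and none in U87-R or U87 in the authors' deposited table. SNHG8, SNHG16 and SNHG1 had no peak in any group.

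SNHG8 was thus absent from both kinds of list in spite of its high scores. In U87-R it had 5 bases that scored 10 or more in 2 or 3 libraries, and 0 of them lay in a listed peak. Of 3856 genes with at least as many such bases, 117 (3.03%) had none in a peak. Over all genes, 67.2% of such bases lay in a peak in treated U87-R, 75.7% in U87-R and 75.1% in U87. Every listed site reached a score of 10 in 2 or 3 libraries of its group. Where RefSeq windows of the first 50 bases gave the letter, 100% of the 3188 listed sites in treated U87-R, the 1978 in U87-R and the 1513 in U87 were A, against 51.9% of all called bases there in treated U87-R, 51.4% in U87-R and 51.6% in U87. The score lists therefore hold many called bases that are not A, as in SNHG1. Inside these windows, bases that scored 10 or more in 2 or 3 libraries and lay in a peak, but were not listed, were rarely A. The share was 0% of 2078 in treated U87-R, 2.72% of 1509 in U87-R and 2.35% of 1193 in U87. Bases 2, 3 and 4 of SNORD99 were strong, in a peak and unlisted in treated U87-R, but lie outside the windows. Letters outside these windows were not read, so which bases of SNHG5, SNHG8, SNHG12 and SNHG16 are A was not seen directly.

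Over the 8 libraries, the summed scores of the host genes did not follow each other as 1 group. On log2(sum + 1), Pearson's r across the 8 libraries was 0.948 between SNHG5 and SNHG8, 0.712 between SNHG8 and SNHG16 and -0.598 between SNHG8 and SNHG12. These points share the libraries, and 2 of the 8 are treated. The genes whose profile was most like the mean of the 5 were CCNL1 (r = 0.917), IL6-AS1 (0.905), STK4 (0.904), SNX12 (0.898) and ABHD17A (0.885), over the same 8 libraries. They are the highest of a search over many tested genes, where some high r arises from the choice alone. As the 5 host genes differed, their mean need not resemble any of them.

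Of 25 other noncoding snoRNA host genes, 21 had a strand and 10 were tested. With STM2457, limma called 0 of the 10, 1 had an unadjusted p under 0.05, and the changes ran from -1.67 to 1.21 with a median of -0.08. Between U87-R and U87, 1 of the 10 was lower. It was DANCR, which restrains differentiation of progenitor cells, with no call in U87-R and 20.1 ± 13.6 (SD, n = 3) in U87 (log2 change -4.05 ± 0.77, limma adjusted p = 0.048). Of 47 protein-coding snoRNA host genes, 29 were tested, and with STM2457 4 were higher and 14 were lower, with a median of -0.71, against 6.6% and 37.9% of all genes and their median of -0.67. Those named by size were RPS12 (5.67 ± 0.60, limma adjusted p = 0.000201), DKC1 (4.02 ± 1.40, 0.0445) and HSPA9 (1.57 ± 0.56, 0.0489) on the higher side. RPL13 (-8.87 ± 0.47, limma adjusted p = 2.27e-05), RPL4 (-6.89 ± 0.96, 0.000639) and RACK1 (-6.63 ± 1.55, 0.00835) were named on the lower side. RPSA, a ribosomal protein gene, was the 1 called between U87-R and U87 (-6.28 ± 0.60, limma adjusted p = 0.00255). Ribosomal protein genes have many processed copies, so their values are uncertain.

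Of 19 proteins of snoRNA particles and their assembly, 13 were tested, and with STM2457 2 were higher and 1 was lower, with a median of 0.25, where 6.6% of all genes were higher and 37.9% lower. DKC1, the pseudouridine synthase of H/ACA particles, had 69.9 ± 9.93 in treated U87-R (SD, n = 2) and 9.67 ± 15.1 in U87-R (SD, n = 3). RUVBL2, an ATPase of particle assembly, had 229 ± 0.908 in treated U87-R and 123 ± 28.3 in U87-R (log2 change 0.92 ± 0.33, limma adjusted p = 0.049). SHQ1, a DKC1 chaperone, had 75.2 ± 11.5 in treated U87-R and 140 ± 32.0 in U87-R (-0.87 ± 0.30, limma adjusted p = 0.0435). Between U87-R and U87 limma called 0 of the 13, with 1 at an unadjusted p under 0.05.

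Of 20 factors of nonsense-mediated decay, the pathway that degrades several spliced host RNAs, 17 were tested, and with STM2457 2 were higher and 6 were lower, with a median of -0.70, against 6.6% higher, 37.9% lower and a median of -0.67 over all genes. SMG1, the kinase that phosphorylates UPF1, had 202 ± 6.30 in treated U87-R (SD, n = 2) and 894 ± 120 in U87-R (SD, n = 3), a log2 change of -2.13 ± 0.17 (limma adjusted p = 7.33e-05). DHX34 (-1.59 ± 0.35, limma adjusted p = 0.00592) and EIF4A3, a core protein of the exon junction complex (-1.26 ± 0.38, adjusted p = 0.0263), were lower too. NBAS (5.18 ± 1.09, limma adjusted p = 0.00496) and MAGOHB (5.18 ± 1.75, adjusted p = 0.0398) were higher. Between U87-R and U87 limma called 0 of the 17, with 1 at an unadjusted p under 0.05.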

How the data were processed

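The authors deposited, per m6A-eCLIP library, a list of called bases with a position, strand and score. In every list this value equals the lowest of 4 further scores on the same line. The authors' deposited lists of reproducible sites and peaks give, per group, the fraction of libraries that passed and a combined score, and were used as lists. STAR, cutadapt and UMI-tools and the build hg38 are named per the submitters' processing notes. Not given in the sources used here are the base caller, the peak caller and the score's formula. The 8 input libraries were not analysed here.

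Gene spans came from RefSeq (GRCh38.p14) and strands from its promoter table, except that of SNHG15, written from its known strand. Of 452349 called bases, 331503 (73.3%) were given to 1 of 27306 genes and 6143 lay in 2 or more. Scores were summed per gene and library, with 0 where no base was called. In R 4.3.3, limma 3.58.1 with trended variance was fitted to log2(sum + 1) in the 8 libraries with 3 group means, without scaling, for genes whose sum reached 10 in 2 or more libraries, and likewise to log2(score + 1) per base. Adjustment was Benjamini-Hochberg over all features, at 0.05. The fit was tested on simulated data in which few features were changed. There the fit to single bases found almost none of the changes. With STM2457 the real fit called 44440 of 188742 bases, which makes the adjusted threshold less strict than in the simulation. The simulated share therefore does not measure how many real changes were found. A base that did not pass may still have changed. Figures used matplotlib 3.10.9.

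The members and lists were chosen with earlier results of these data known. Named were all 7 genes, up to 3 called genes per list and direction by size, the 5 genes most correlated with the mean profile, and per host gene the base with the highest mean score and up to 3 called bases per direction. Alternatives were each library left out, a replicate block, centring on library medians, an added value of 10, other filters, a window of 100 nt and bases counted in place of scores.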

Additional observations from a re-analysis of the deposited data

How the results depend on the processing

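Results depended on scaling, on what was summed, and on the few libraries. With STM2457, 3950 genes were called (14.8% of them higher). Centring on library medians made 39.4% of the called genes higher, and scaling to library totals, an alternative chosen after seeing the data, made 41.8% higher. Beyond 50 nt the share was 9.51%, and 47.9% when centred. SNHG5, SNHG8, SNHG16 and SNHG12 kept their call and direction under both scalings of whole-gene sums. For bases, centring gave 77449 calls (88.6% higher) in place of 44440 (28.2% higher), and the changes of SNHG16 bases 76563437 (2.40) and 76564767 (1.68) and SNHG8 base 118279679 (1.19) reversed. Those SNHG16 bases had no call in treated U87-R, so their reversal is not a rise in score. Counting bases in place of scores reversed SNHG8 to 0.054, over the whole gene and beyond 50 nt. Within 50 nt, 811 genes were called with STM2457, against 538 with the replicate block, 443 centred and 295 with bases counted. Between U87-R and U87, whole-gene calls numbered 111, against 52 with the replicate block and 54 with bases counted. Within 50 nt there were 31, against 0 with the block and 1 centred. Beyond 50 nt there were 98, against 45 with the block and 52 with bases counted. Single bases gave 1 call, against 0 with the block, 13 with 10 added, 28 centred and 708 where a score of 10 in 2 libraries was required. The shares of higher calls between U87-R and U87 were 67.6%, and 56.9% centred. Of the 69 host gene bases, 28 had a score of at least 10 in a library, with no share over all called bases computed, and 64 lay outside snoRNAs. Whether replicate numbers pair the libraries was left undecided. Same-numbered U87-R and U87 libraries correlated at 0.091, 0.304 and 0.098, and differently numbered ones at -0.2 to 0.145, so not every library did so best with its own number. These correlations used departures from the group mean. With 2 treated libraries such departures mirror each other, so they cannot decide pairing there. Under the replicate block SNHG16 did not pass (adjusted p = 0.0716) and SNHG1 passed (adjusted p = 0.0493). With 1 library left out, calls with STM2457 ranged from 2571 to 4355 for genes, 2 to 865 within 50 nt, 3535 to 5020 beyond it, and 25035 to 51555 for bases. Between U87-R and U87 they ranged from 47 to 155, 0 to 116, 45 to 141 and 0 to 5374 in that order. A lone treated library was then assumed to vary like the other groups. Of the values set against an alternative, 730 kept direction and side of the threshold, 35 lost the call, 22 gained it and 5 reversed. Depth is unknown, so an absent call cannot be told apart from low coverage.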
